A study of Mus musculus with 46 samples.

Results

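H3K4me3, the trimethylated form of lysine 4 of histone H3, was compared between mouse embryonic fibroblasts at day 0 (D0) and the induced pluripotent stem cells (iPSCs) derived from them. The comparison used every peak that was called in the D0 and iPSC H3K4me3 libraries, 41015 and 36122 peaks, which are 77137 of the 1502717 peaks in the 30 peak lists of the series. The series followed the histone variant H3.3, H3K4me3 and H3K36me3 while fibroblasts were reprogrammed. It holds 46 samples, of which 7 have an H3K4me3 list. The fibroblasts (MEFs) were grown from embryos that carried an IRES-EGFP cassette behind the stop codon of Oct4, and the labels give the D0 sample only as such fibroblasts at day 0. The sources used here do not say of this library whether it was taken before or after the infection. The fully reprogrammed iPSCs descended from MEFs of that genotype that were infected with pMXs retroviruses for Sox2, Klf4, Oct4 and c-Myc, and were kept in feeder-free medium. How many embryos, and how many iPSC clones, went into the libraries was not given in the sources used here. Neither sample was sorted. Each state is 1 library, so no difference between the states has a replicate check, and no test was run between them. The intervals below are 95% intervals that cover counting error only, and genes of 1 list are not independent draws. In a mixed sample, fewer cells with the mark and less of the mark in each cell cannot be told apart.

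H3K4me3 is written at gene starts by the Set1 and Mll methyltransferase complexes, which are drawn to unmethylated CpG islands and to the transcription machinery. It marks promoters of active genes, and in stem cells also many silent developmental promoters that carry H3K27me3 as well. Broad domains of the mark, several kilobases wide, are known from genes that define a cell's identity. Fibroblasts are connective tissue cells that secrete collagens and other matrix proteins, while pluripotent cells rest on a circuit around Oct4, Sox2 and Nanog.

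For each peak, the submitters gave a Normalized Tag Count, the ChIP tags in the peak scaled to a library of 10 M tags, and the fold over the input library. The D0 library held 29.2 M tags, of which 30.4% lay in peaks. The iPSC library was deeper, with 35.4 M tags, but only 12.7% of them lay in peaks. Its peaks were also weaker over input, with a median fold of 5.73 against 7.33 in D0. The median peak was 1145 bp wide in D0 and 1016 bp wide in iPSCs, and the widest were 30547 bp and 21414 bp. A single promoter is therefore read below against the shift of all shared promoters, and the part of the difference in enrichment in the counts of single-state promoters was not tested.

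A gene was taken as marked where a peak overlapped the window from 1000 bp before to 100 bp after any of its transcription start sites. Of 22219 protein-coding genes, 13610 (61.3%) were marked in both states and 7253 in neither. The mark was present in fibroblasts only at 899 genes, 4.05% of all genes, and in iPSCs only at 457 genes, 2.06% of all genes. These 2 shares are the background against which the gene lists below are read. When both lists were cut to an equal number of 36122 peaks, by removing the 4893 D0 peaks with the lowest tag counts, 851 genes were D0-only and 482 were iPSC-only. All 851 were among the 899, and all 457 iPSC-only genes were among the 482. Ranking by tags per kilobase gave 845 and 490 genes. A limit on the fold over input gave another picture: among peaks at least 8-fold over input, 8035 genes were D0-only, 94 were iPSC-only and 5593 were shared. In that setting 46.5% of the D0 peaks and 19.2% of the iPSC peaks remained.

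Most single-state promoters carried little of the mark. The median tag count of the D0-only promoters was 37.1, against 171.8 over all promoters marked in D0, and 77 of the 899 (8.57%) reached that overall median. In iPSCs the medians were 15.3 and 60.9, and 65 of 457 genes (14.2%) reached the overall one. The median widest peak was 1422 bp at D0-only and 1000 bp at iPSC-only promoters. The other state had no peak within 5 kb of any start site at 612 of the 899 D0-only genes and at 321 of the 457 iPSC-only genes. The rest had a nearby peak that missed the promoter window, as at Col1a1, where the iPSC library had a peak within 5 kb, and at Nanog, where the D0 library had one.

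The sequences of promoters that were marked in 1 state were poor in CpG. The observed over expected CpG ratio of the promoter window had a median of 0.267 over D0-only genes and 0.273 over iPSC-only genes, against 0.582 over shared promoters and 0.159 over genes with the mark in neither. A ratio of at least 0.6, as in CpG islands, was found at 2.45% of the D0-only, 4.39% of the iPSC-only and 46.5% of the shared promoters, and at 28.8% of all genes. The following stretches of 200 bp, from 170 bp before to 29 bp after the annotated start (mm9), show this. CpG dinucleotides are in capitals. Col6a3 and Ddr2 were D0-only, Nanog and Dppa4 were iPSC-only, and Twist2 was marked in both. Their CpG ratios over the whole window were 0.218, 0.325, 0.302, 0.195 and 0.627, and the stretches printed hold 5, 7, 2, 3 and 15 CpG.
Col6a3, chr1:92740322-92740521, minus strand: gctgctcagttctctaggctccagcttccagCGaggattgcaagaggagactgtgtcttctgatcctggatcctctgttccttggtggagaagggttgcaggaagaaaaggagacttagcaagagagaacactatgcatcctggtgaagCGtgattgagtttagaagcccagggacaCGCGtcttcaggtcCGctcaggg
Ddr2, chr1:172040603-172040802, minus strand: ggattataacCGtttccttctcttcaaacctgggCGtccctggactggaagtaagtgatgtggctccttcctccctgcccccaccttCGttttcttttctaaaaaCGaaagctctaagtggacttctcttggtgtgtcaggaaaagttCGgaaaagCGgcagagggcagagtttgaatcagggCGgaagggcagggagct
Nanog, chr6:122657337-122657536, plus strand: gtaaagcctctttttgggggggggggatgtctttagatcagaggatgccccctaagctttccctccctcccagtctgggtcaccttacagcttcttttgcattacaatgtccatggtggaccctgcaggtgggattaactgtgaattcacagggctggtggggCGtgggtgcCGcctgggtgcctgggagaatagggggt
Dppa4, chr16:48283678-48283877, plus strand: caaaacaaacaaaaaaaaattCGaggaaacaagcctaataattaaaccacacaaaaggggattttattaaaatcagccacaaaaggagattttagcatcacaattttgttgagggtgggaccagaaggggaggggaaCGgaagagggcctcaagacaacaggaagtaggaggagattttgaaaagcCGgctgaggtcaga
Twist2, chr1:93697868-93698067, plus strand: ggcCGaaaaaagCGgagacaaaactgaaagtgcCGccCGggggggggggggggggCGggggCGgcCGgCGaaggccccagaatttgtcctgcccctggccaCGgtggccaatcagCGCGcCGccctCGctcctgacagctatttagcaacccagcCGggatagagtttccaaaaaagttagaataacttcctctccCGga

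Fibroblast genes had the mark in D0 throughout. Of the 46 genes in the fibroblast and mesenchymal list, all 46 were marked in D0 and 31 in iPSCs, a change of -32.6 percentage points (-47.0 to -18.6), where all genes changed by -1.99 points. None of the list was iPSC-only. The 15 D0-only members include matrix genes (Col1a1, Col3a1, Col5a2, Col6a1, Col6a3, Postn, Lum, Dcn and Thbs2), the contractile genes Acta2 and Tagln, the calcium-binding S100a4, the cell-surface protease Fap, the collagen receptor Ddr2 and the transcription factor Meox1. Among these, Col1a1, a chain of type I collagen, had a tag count of 574.4 over a peak of 15241 bp. Col6a3, a chain of the microfibrillar type VI collagen, had 571.8 over 8076 bp, and Ddr2 had 410.9 over 5096 bp. The lowest of the 15 was Meox1, with 26.9 over 1525 bp, so the strength of the mark differed widely inside the list.

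At the 31 fibroblast genes marked in both states, the peak was narrower and weaker in iPSCs. Their median widest peak was 6963 bp in D0 and 2306 bp in iPSCs. Their median log2 tag count ratio, iPSCs over D0, was -3.39, against -1.45 over all shared promoters. Twist2, a helix-loop-helix repressor of mesenchyme, had a tag count of 748.2 over 10831 bp in D0 and of 35.2 over 1800 bp in iPSCs. Pdgfra, the receptor for platelet-derived growth factor, had 738.7 over 11691 bp and 50.0 over 2332 bp. Thy1, the surface antigen by which cells were sorted at later days, had 192.4 over 4091 bp and 23.0 over 1345 bp. These 3 genes were much weaker in iPSCs but were not without the mark. Fbln1, which encodes a matrix glycoprotein, was the one member with a wider peak in iPSCs, with 3371 bp in D0 and 3970 bp in iPSCs.

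Pluripotency genes showed the opposite order. Of 45 genes in the list, 27 were marked in D0 and 39 in iPSCs, a change of 26.7 points (8.41 to 42.8), and none was D0-only. The 12 iPSC-only members were Pou5f1, Nanog, Zfp42, Dppa2, Dppa4, Dppa5a, Gdf3, Nr0b1, Tdgf1, Gtsf1, Tet1 and Fbxo15. Nanog, a homeodomain factor of the core circuit, had a tag count of 262.7 over 8470 bp in iPSCs. Tdgf1, a Nodal co-receptor, had 220.0 over 5383 bp and Zfp42, the zinc finger protein Rex1, had 175.8 over 4695 bp. Tet1, which oxidises methylated cytosine, had 98.4 over 3394 bp. The lowest was Gtsf1, with 11.6 over 783 bp. No peak met the promoter window in either state at Dppa3, Lefty1, Lefty2, Tcl1, Zscan4c and Gbx2, and Tfcp2l1 was not matched in the annotation. Both libraries had a peak within 5 kb of a start site at Dppa3, Lefty1, Lefty2 and Gbx2. At Tcl1 the iPSC library alone had one, and at Zscan4c neither library did.

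The 27 pluripotency genes with the mark in both states had a median widest peak of 2473 bp in D0 and 5604 bp in iPSCs. Sall4, a zinc finger factor of the pluripotency circuit, had a peak of 3473 bp in D0 and of 16571 bp in iPSCs, the third widest at any promoter there. Esrrb, an orphan nuclear receptor, had 2473 bp and 8090 bp, and Dnmt3l, a cofactor of de novo DNA methylation, had 1189 bp and 8505 bp. Their tag counts were also higher in iPSCs, at 480.5 against 109.4 for Sall4, 306.0 against 76.5 for Esrrb and 190.0 against 19 for Dnmt3l. Of the 27 genes, 23 had a wider peak in iPSCs and 4 a narrower one. Tag counts were lower in iPSCs at 8 of them (29.6%), against 96.6% of all shared promoters. The 8 were Klf2, Klf4, Klf5, Tbx3, Tet2, Dnmt3b, Etv5 and Lin28b. Read against the median log2 tag count ratio of all shared promoters, only Lin28b among these was lower (-0.32). The others were higher, from 0.43 at Etv5 to 1.37 at Dnmt3b. Lin28b, an inhibitor of let-7 maturation, had 203.0 in D0 and 59.5 in iPSCs over peaks of 2259 bp and 2119 bp.

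Of the 4 genes carried by the viruses, Sox2 had a tag count of 120.8 in D0 and 312.4 in iPSCs, Klf4 had 376.0 and 294.2, and Myc had 621.6 and 298.5. Read against the median log2 ratio of all shared promoters, Sox2, Klf4 and Myc were higher in iPSCs, by 2.82, 1.09 and 0.39. Pou5f1 had the highest tag count of any iPSC promoter, 2661.2 over 4256 bp, and no peak in D0. The input density under its iPSC peak was 33.5 times the library median. It was 1.93 and 2.19 times the median under the iPSC peaks of Klf4 and Myc. The part of the viral copies in the Pou5f1 value was not tested.

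**Figure D1:**
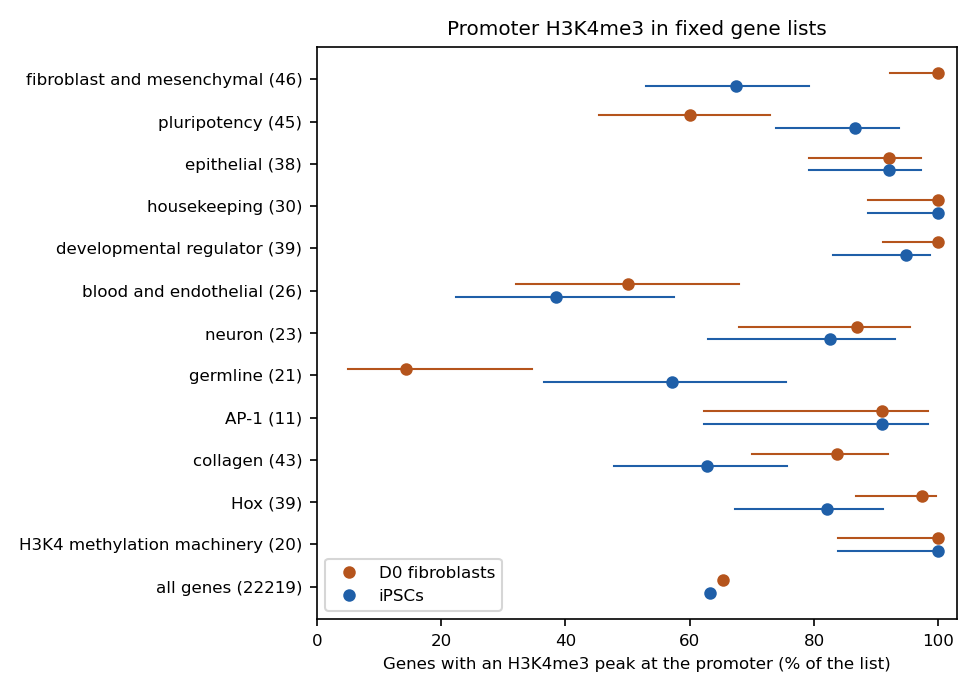
Share of the genes of each list with an H3K4me3 peak at the promoter (x axis, percent of the list) in D0 fibroblasts (orange) and iPSCs (blue), with the number of genes in parentheses and bars for 95% Wilson intervals, which cover counting error only; all genes are shown without bars. The fibroblast list goes from 100% in D0 to 67.4% in iPSCs and the pluripotency list from 60.0% to 86.7%, while the housekeeping list stays at 100% and all genes lie at 65.3% and 63.3%.

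The structural gene families followed the fibroblast list, which holds 8 collagens and so is not independent of the collagen list. Of 43 collagen genes, 36 were marked in D0 and 27 in iPSCs, a change of -20.9 points (-37.9 to -2.16). The interval held 0 with equal numbers of top peaks by tag count (-18.6, -36.0 to 0.40) or by tags per kilobase (-16.3, -34.0 to 2.92), and the change was -9.30 points (-26.1 to 8.05) with a window of 2 kb to either side. The 9 D0-only collagens were Col1a1, Col3a1, Col4a5, Col4a6, Col5a2, Col5a3, Col6a1, Col6a3 and Col24a1. Col4a5 and Col4a6 are neighbours that point away from each other. Among the 27 shared collagens, Col9a3, a cartilage collagen, was the exception with a stronger mark in iPSCs, 26.3 against 5.48.

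Hox genes, the homeobox genes that set position along the body axis, held the broadest domains in fibroblasts. Of 39 Hox genes, 38 were marked in D0 and 32 in iPSCs, a change of -15.4 points (-30.3 to -1.48). With a window of 2 kb to either side of a start, the change was -2.56 points (-14.5 to 8.68), so the loss of calls rests on the narrow window. Hoxa6, Hoxb2, Hoxb4, Hoxb5, Hoxd4 and Hoxd12 were D0-only, and Hoxb1 was marked in neither. In D0, 1 peak of 30547 bp, the widest of the library, covered the promoters of Hoxa7, Hoxa9, Hoxa10 and Hoxa11, and 1 of 26643 bp covered Hoxc9 and Hoxc10. In iPSCs the widest peaks at these 6 genes were between 1876 bp and 3004 bp. The median over the 32 shared Hox genes was 5968 bp in D0 and 2140 bp in iPSCs. Hoxc12 (1552 bp in D0 and 4200 bp in iPSCs), Hoxc13 (2855 bp and 3464 bp) and Hoxa4 (2354 bp and 2483 bp) were wider in iPSCs. Genes under 1 peak share its value and are not separate observations.

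Other regulators of development kept the mark. Of 39 developmental regulators outside the Hox clusters, 39 were marked in D0 and 37 in iPSCs. Only Sox10, a neural crest factor, and Tbx5, a limb and heart factor, were D0-only. Of the 37 shared ones, 29 had a narrower peak in iPSCs and 7 a wider one. Their median widest peak was 3696 bp in D0 and 2287 bp in iPSCs. Pax6, a regulator of the eye and brain, was the only one of equal breadth. It had a tag count of 243.5 in D0 and 139.9 in iPSCs over 3319 bp in each. Nkx2-5 had 5022 bp in D0 and 945 bp in iPSCs, while Hand1 had 770 bp and 1795 bp.

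Epithelial genes were marked in D0 as often as in iPSCs, with 35 of 38 in each. Grhl3, an epidermal factor, was the D0-only member and Krt7 the iPSC-only member. The median breadth over the 34 shared genes was 1877.5 bp in D0 and 2844.5 bp in iPSCs, with 25 genes wider and 9 narrower in iPSCs. Tag counts were lower in iPSCs at 17 of the 34, against 96.6% of all shared promoters. Cdh1, which encodes E-cadherin, had 1817 bp with a tag count of 74.6 in D0 and 6232 bp with 171.7 in iPSCs. Krt8, a keratin of simple epithelia, had 790 bp with 10.3 and 2502 bp with 49.3. Pkp2, a desmosomal plakophilin, went the other way, with 4651 bp and a tag count of 202.0 in D0 and 2077 bp with 65.7 in iPSCs, and Lad1 had 2546 bp with 67.4 and 816 bp with 23.2.

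Germline genes made up the list with the largest share of iPSC-only members. Of 21 genes, 3 were marked in D0 and 12 in iPSCs, a change of 42.9 points (13.9 to 63.5). The 9 iPSC-only genes were Ddx4, Mael, Piwil1, Tex19.1, Taf7l, Hormad1, Mov10l1, Slc25a31 and Sohlh2. Apart from Tex19.1, with a tag count of 65.0, their tag counts lay between 5.51 and 18.9, below the iPSC median of 60.9. Dazl, an RNA-binding protein of germ cells, was marked in both, with 45.4 in D0 and 5.93 in iPSCs.

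In direction, the checks of the labelled cell types followed the labels. Thy1, Col1a2, Twist1, Twist2, Prrx1, Pdgfrb and Fbn1 were marked in both states and stronger in D0, as were 96.6% of all shared promoters. Read against the median log2 tag count ratio of shared promoters, they lay between -2.96 (Twist2) and -1.57 (Twist1). Nanog, Pou5f1, Zfp42, Dppa4, Dppa5a and Tdgf1 had promoter peaks in iPSCs alone. Esrrb, Fgf4 and Utf1 had peaks in D0 too, with tag counts of 76.5, 37.5 and 66.1. Their iPSC tag counts were 306.0, 174.1 and 144.3. Of 26 blood and endothelial genes, 13 were marked in D0 and 10 in iPSCs. The 5 D0-only members, 19.2% of the list against 4.05% of all genes, were Cd34, Erg, Tek, Pecam1 and Lyl1. The 8 marked in both include Runx1, Gata2, Fli1, Kdr, Esam, Tal1 and Ikzf1, and Kdr, the endothelial receptor for VEGF, had a tag count of 104.2 in D0 and 37.6 in iPSCs. Another 11 members had no promoter peak in either state, among them Ptprc, Gata1 and Cdh5, and Cd3e had 7.21 over 500 bp in iPSCs alone. Cd34, also found on fibroblasts, had a tag count of 131.3 and Erg had 95.2, while Pecam1 had 9.76 over 628 bp. The part of other cell types in the D0 marks was not tested. Cd68 was iPSC-only under a peak it shares with Eif4a1, which was marked in both. Of 23 neuronal genes, 20 and 19 were marked. All 30 housekeeping genes and all 20 genes of the H3K4 methylation machinery were marked in both states. Actb had 5353 bp in D0 and 5292 bp in iPSCs. Of 11 AP-1 genes, 10 were marked in both states and Batf2 in neither. The median log2 breadth ratio of the 10, iPSCs over D0, was -0.50, against -0.31 over all shared promoters. Fosl1, a Fos relative that is common in fibroblasts, had a tag count of 330.8 over 5970 bp in D0 and 40.6 over 1591 bp in iPSCs. Read against the median of all shared promoters, its log2 breadth ratio was -1.60, the lowest of the 10. Atf3 was the 1 member with a wider peak in iPSCs, with 4929 bp in D0 and 5699 bp in iPSCs.

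Over the 13610 shared promoters, the widest peak had a median of 2790 bp in D0 and 2206 bp in iPSCs. The log2 ratio of breadth, iPSCs over D0, had a median of -0.31 (quartiles -0.65 and -0.04), and 10571 promoters were narrower in iPSCs. Median tag counts were 178.9 and 62.2, with a median log2 ratio of -1.45. Divided by the sum of the tag counts over all peaks of the library, the median log2 ratio of tag counts was -0.19. Breadth was then read relative to the median ratio. At least 2-fold broader in iPSCs than this median shift were 498 promoters, 3.66% of those shared, and at least 2-fold broader in D0 were 800, 5.88%. Against these shares, 19 of the 27 shared pluripotency genes were broader in iPSCs and 0 in D0. Among fibroblast genes the counts were 0 of 31 in iPSCs and 20 in D0, and among Hox genes 1 of 32 in iPSCs and 17 in D0. Collagens counted 1 and 9 of 27, developmental regulators 1 and 8 of 37, and epithelial genes 10 and 1 of 34. The housekeeping counts of 2 and 1 of 30 were near the background.

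**Figure D2:**
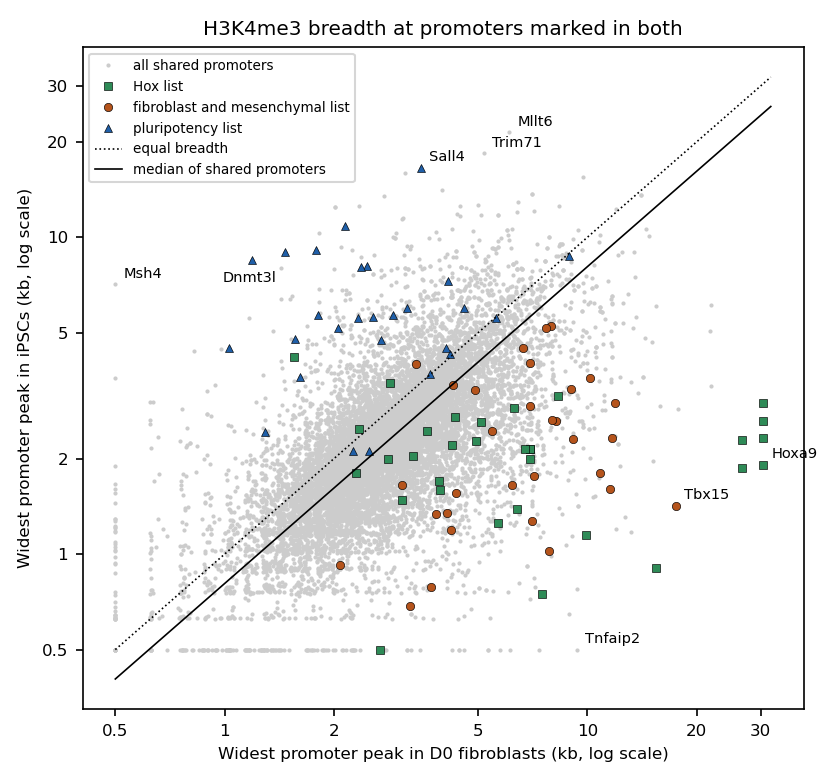
Width of the widest promoter peak in D0 fibroblasts (x axis, kb, log scale) against iPSCs (y axis, kb, log scale) for the 13610 promoters marked in both states (grey), with Hox genes as green squares, fibroblast genes as orange circles and pluripotency genes as blue triangles; the dotted line is equal breadth and the solid line the median ratio. Pluripotency genes such as Dnmt3l (1189 bp in D0, 8505 bp in iPSCs) lie above the lines, and Hoxa9 (30547 bp and 1918 bp) and Tbx15 (17488 bp and 1422 bp) far below.

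Genes with the most extreme values were taken by rank. The largest gain of breadth in iPSCs was at Msh4, a meiotic mismatch repair homologue, with 500 bp in D0 and 7115 bp in iPSCs, but its iPSC promoter peaks were shared with its neighbour Rabggtb. Hsf2bp, which acts in meiotic recombination, followed with 500 bp and 3593 bp and shared iPSC peaks with Rrp1b. Nr5a2, a nuclear receptor that binds the Oct4 gene, had 1463 bp and 8999 bp. At the other end stood Tnfaip2, a gene induced by tumour necrosis factor, with 9329 bp in D0 and 500 bp in iPSCs. Tbx15, a limb and skin mesenchyme factor, had 17488 bp and 1422 bp. Of the 10 genes with the smallest ratio, 4 were Hox genes, and Evx2 lies beside the Hoxd cluster. The widest iPSC peaks lay at Mllt6 (21414 bp) and at Trim71 (18406 bp), the latter a regulator of stem cell messenger RNAs.

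The strongest D0-only promoter was that of Kdm6b, which encodes an H3K27 demethylase, with a tag count of 807.0 over 14458 bp. An iPSC peak lay within 5 kb of it. Behind it came Gm10748, under a peak shared with Zfhx4, then Rbms3, Col1a1, Col6a3, Fgf7, Sema3a, Hoxb5, Emp1 and Cntnap1. Fgf7, a growth factor that mesenchyme sends to epithelium, had 481.6 over 9182 bp, with no iPSC peak within 5 kb. Of the 10 strongest iPSC-only promoters, 9 lay over input that was at least 4.68 times the library median. They were Pou5f1, Sfi1 (631.4 over 941 bp, with input 48.8 times the median) and 7 genes of 1 interval of chromosome 4, chr4:145100662-147052416. This interval holds clustered zinc finger genes, among them Zfp600. It was drawn from the first to the last of those 7 genes, so its counts are not independent of that choice. On all of chromosome 4, 27 of 1345 genes were iPSC-only. Of the 18 genes of the interval, 11 were iPSC-only, those 7 included, 3 were marked in both, 4 in neither and 0 in D0 only. Gm13242 and Gm13225, among those 7, share an iPSC promoter peak and are not separate observations. The H3K4me3 lists held 30 peaks there in D0 and 75 in iPSCs, and the H3.3 lists held 6 in D0, 220 in iPSCs and 110 in the embryonic stem cell line ESD3. Median input density in the H3K4me3 peaks of the interval was 1.18 times the library median in D0 and 2.42 times in iPSCs. In the H3.3 peaks there it was 3.95 times in D0, 2.62 times in iPSCs and 2.89 times in ESD3. The part of input density in the counts of either mark was not tested. No D0-only gene and 14 iPSC-only genes had input over 3 times the median.

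Chromosome X held 76 D0-only genes of 927 (8.20%) and 18 iPSC-only genes (1.94%). Of its genes, 51.8% were marked in D0 and 45.5% in iPSCs, a change of -6.26 points (-10.8 to -1.71). Input density in peaks on X, relative to autosomes, was 0.684 in D0 and 0.632 in iPSCs. Chromosome 3, the other one whose interval left out 0, changed by -5.26 points (-9.32 to -1.18), with 63 D0-only and 8 iPSC-only genes. Chromosomes X and 3 were picked from all chromosomes by their intervals. The change over all genes, -1.99 points, lies inside both intervals.

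In libraries that did not define the classes, D0-only and iPSC-only promoters had different shares. Of the 899 D0-only promoters, 66.0% had an H3K4me3 peak at day 3, 70.7% in Thy-1 negative cells of day 6 (D6T-), 62.4% in those of day 9 (D9T-), 35.04% in SSEA-1 positive cells of day 12 (D12S+) and 8.90% in those of day 16 (D16S+). The 457 iPSC-only promoters had peaks at 12.0%, 22.1%, 19.5%, 27.4% and 16.2%. Over all genes the shares were 64.0%, 64.9%, 63.9%, 61.1% and 39.1%. Up to D9T- the D0-only shares were thus near those of all genes, and the iPSC-only shares were below them. The D16S+ library was the shallowest, with 15.8 M tags and 3.71% of them in peaks, and it had a peak at only 62.5% of the promoters marked in both states. The value at D16S+ is thus not on the scale of the others. Promoters marked in neither state had peaks in at most 2.50% at any of these days.

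Among named genes the days differed by list. Of the 15 fibroblast genes with D0-only marks, 13 had a peak at day 3 and 13 in D6T-, then 10 in D9T-, and among SSEA-1 positive cells 4 in D12S+ and 0 in D16S+. Of the 12 iPSC-only pluripotency genes, 0 had one at day 3 and 4 in D6T-, then 5 in D9T-, and among SSEA-1 positive cells 9 in D12S+ and 5 in D16S+. Among the 9 iPSC-only germline genes, 0 had a peak up to D9T-, and the D12S+ and D16S+ lists had 1 each.

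H3.3, the histone variant placed outside of replication, was read in its own libraries. Its peaks covered 39.0% of D0-only promoters in D0 and 19.9% in iPSCs, a difference of -19.1 points (-23.2 to -15.0). At iPSC-only promoters the shares were 12.7% and 44.6%, a difference of 31.9 points (26.3 to 37.3), and 28.9% in ESD3 cells. Promoters marked in both had 56.0% in D0 and 63.4% in iPSCs, and all genes had 38.1% and 42.1%. Breadth followed too: of the 800 promoters broader in D0, 63.3% had H3.3 in D0 and 42.8% in iPSCs, while of the 498 broader in iPSCs, 53.4% had it in D0 and 81.9% in iPSCs. Of the 27 shared pluripotency genes, 8 had H3.3 in D0 and 26 in iPSCs, and of the 31 shared fibroblast genes, 27 and 9. H3K36me3, a mark of transcribed gene bodies, was found on 34.1% of D0-only genes in D0 and on 8.45% in iPSCs. It was found on 16.0% and 14.4% of iPSC-only genes, and on 71.8% and 51.9% of genes marked in both. Over all genes the H3K36me3 shares were 48.2% and 33.6%. The iPSC H3K36me3 library had 2.88% of its tags in peaks against 31.3% in D0, so its shares are low for all classes.

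**Figure D3:**
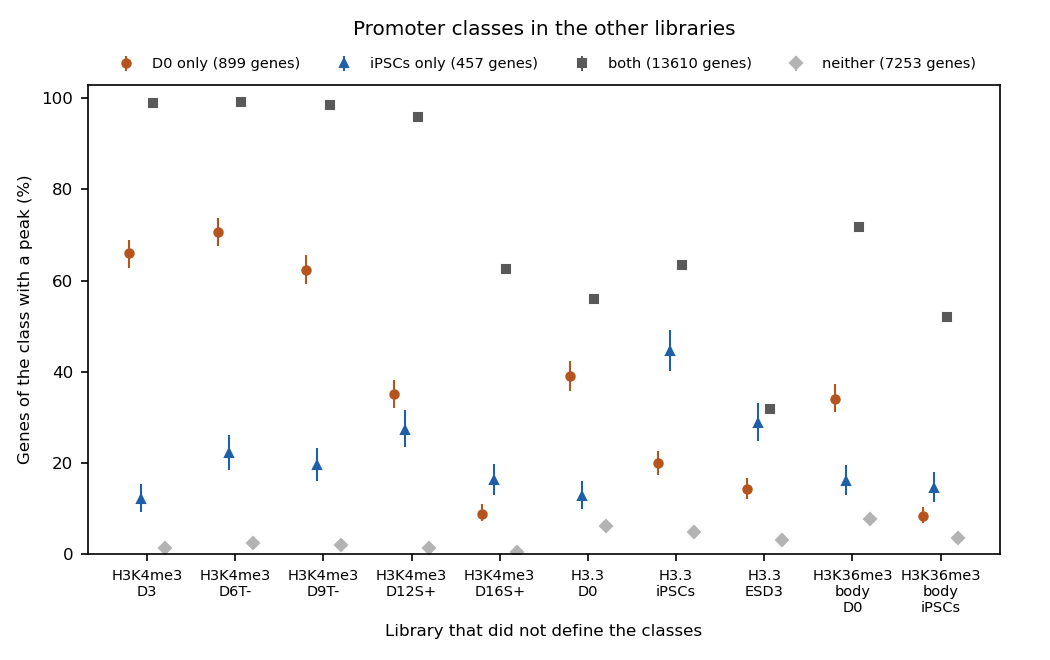
Percent of the genes of each promoter class (y axis) that had a peak in 10 libraries that did not define the classes (x axis): H3K4me3 at intermediate stages and H3.3 at the promoter, and H3K36me3 in the gene body; bars are 95% Wilson intervals, covering counting error only. D0-only promoters (orange circles) go from 66.0% at D3 to 8.90% at D16S+, and for H3.3 the iPSC-only promoters (blue triangles) go from 12.7% in D0 to 44.6% in iPSCs.

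Away from promoters the states shared less. Peaks whose nearest edge lay at least 5 kb from any annotated start made up 48.6% of D0 and 42.3% of iPSC peaks on assembled chromosomes. Of 19902 distal D0 sites, 16227 (81.5%) met no iPSC peak, and of 15245 distal iPSC sites, 11480 (75.3%) met no D0 peak. With equal numbers of top peaks, 12822 distal sites were D0-only and 11657 were iPSC-only. Single-state distal sites were weak. Their median tag count was 9.41 in D0 and 7.91 in iPSCs, with median widths of 648 bp and 500 bp, the latter being the smallest width the peak caller gave to the library. Distal sites found in both had a median of 30.1 over 1282 bp in D0.

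The strongest D0-only distal site, chr15:27706550-27720364, lay inside Trio, which encodes a guanine nucleotide exchange factor, 102195 bp from the nearest start, and had a tag count of 555.2 over 13814 bp. Another of the first 5 lay in Ankrd28 (305.5). A further one, chr6:47609752-47610754, had 187.9 and lay over input 5.86 times the library median. Among iPSC-only distal sites, the first 3 by tag count lay over input at least 3.13 times the library median. The next, chr13:98251406-98258227, had 277.8 over 6821 bp and lay 243756 bp from the start of Enc1, and chr14:22299990-22305395 had 218.9 and lay 16384 bp from the start of Myst4, a histone acetyltransferase.

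H3.3 peaks at distal sites were also more frequent in the state with the mark. H3.3 was present at 59.4% of D0-only distal sites in D0 and at 15.9% in iPSCs. At iPSC-only distal sites the shares were 14.7% and 51.4%, with 26.7% in ESD3 cells. Distal D0 sites that met an iPSC peak had H3.3 at 47.4% in D0 and 58.7% in iPSCs. For distal iPSC sites that met a D0 peak the shares were 45.5% and 55.8%. The D0-only share in D0 was thus above that of shared sites, and the iPSC-only share in iPSCs was below it. H3K4me3 itself was seen again less often than at promoters: 25.2% of D0-only distal sites had a peak at day 3, 31.0% in D6T- and 8.50% in D12S+, and 3.24%, 9.46% and 13.5% of iPSC-only sites had one.

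Motif letters were searched on both strands of a 500 bp window around the middle of each distal site. The AP-1 letters TGANTCA, bound by Fos and Jun dimers, were found in 28.6% of D0-only windows (27.9 to 29.3) and in 11.6% of iPSC-only windows (10.98 to 12.1), a difference of 17.0 points. Sites found in both had them in 14.0%. Windows 5 kb to either side of the sites had them in 14.3%, 12.9% and 13.6%, so the D0-only sites stood out against their own surroundings. The same letters reversed, ACTNAGT, were found in 12.7% of D0-only, 10.1% of iPSC-only and 8.95% of shared windows. With the D0-only sites split into 4 equal groups by tag count, their AP-1 share lay between 27.6% and 29.9%, and among the 1000 with the highest tag counts it was 22.0%. A motif match is a description of the letters and not a bound site. The 3 examples below are among the D0-only distal sites with the highest tag counts that hold the AP-1 letters, which are in capitals (mm9, plus strand). Their tag counts were 139.5, 114.7 and 112.8.
Near Csgalnact1, chr8:71080003-71080079: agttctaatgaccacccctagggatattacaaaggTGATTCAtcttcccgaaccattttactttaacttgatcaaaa
Near Thy1, chr9:43753514-43753590: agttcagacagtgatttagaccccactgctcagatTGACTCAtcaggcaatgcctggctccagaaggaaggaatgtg
Near Prss48, chr3:85844378-85844454: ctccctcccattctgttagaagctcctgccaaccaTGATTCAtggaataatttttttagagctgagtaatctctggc

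The site whose nearest gene is Thy1 spanned chr9:43751224-43756296 and lay 97707 bp from the Thy1 start. The octamer ATGCAAAT, which Oct4 and its relatives bind, was slightly rarer at iPSC-only sites. It was found in 2.33% of iPSC-only and 2.74% of D0-only windows, a difference of -0.42 points (-0.79 to -0.04), and in 2.75% of shared ones. The Klf letters GGGTGTGG were found in 5.64%, 4.83% and 6.59%. Examples of iPSC-only distal sites with the octamer (capitals, mm9, plus strand) had tag counts of 126.9, 113.2 and 108.9.
Near Eif2s2, chr2:154706776-154706853: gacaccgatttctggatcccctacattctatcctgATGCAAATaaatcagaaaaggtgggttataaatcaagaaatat
Near Ncoa3, chr2:165835558-165835635: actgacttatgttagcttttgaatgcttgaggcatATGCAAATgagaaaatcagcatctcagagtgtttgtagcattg
Near Slc28a1, chr7:88296088-88296165: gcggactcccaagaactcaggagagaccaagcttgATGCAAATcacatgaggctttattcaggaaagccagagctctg

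The windows 5 kb beside the iPSC-only sites held the octamer more often, in 8.32%, than the sites themselves or the windows beside D0-only sites (3.14%). After this was seen, the letters were examined for stretches shared between sites. A word of 20 bases that occurs in at least 50 windows of its class was found in 28.6% of iPSC-only windows, 7.73% of D0-only windows and 4.00% of shared windows. The commonest word was present in 1214 iPSC-only windows (10.6%), in 0 of 16227 D0-only windows and in 1 of 3675 shared windows. The octamer beside the sites stood mostly in 1 frame of 20 bases, with the octamer in capitals.
Commonest word: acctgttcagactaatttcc
Frame with the octamer: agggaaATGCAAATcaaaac

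The frame occurred 4 to 6 kb from the middle of 15.4% of iPSC-only sites, 1.64% of D0-only sites and 1.03% of shared sites. Of the 1214 sites with the commonest word, 1050 had the frame at that distance in 1 order and orientation. No repeat annotation was used, so neither stretch was assigned to a repeat family. The submitters removed reads that mapped to several loci. The 1214 sites lay on 21 chromosomes at a median of 52197 bp from the nearest start, had a median tag count of 9.61 and a median input density of 0.791 times the library median. H3.3 was present at 2.88% of them in iPSCs, against 57.1% of the other iPSC-only distal sites. H3K4me3 was present at 0.165% of them at day 3, at 0.247% in each of D6T- and D9T-, and then at 9.14% in D12S+ and 10.3% in D16S+. Without the sites that held any shared word, the AP-1 letters were found in 28.8% of D0-only and 13.5% of iPSC-only windows, and the octamer in 2.76% and 2.88%, a difference of 0.12 points (-0.32 to 0.58).

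**Figure D4:**
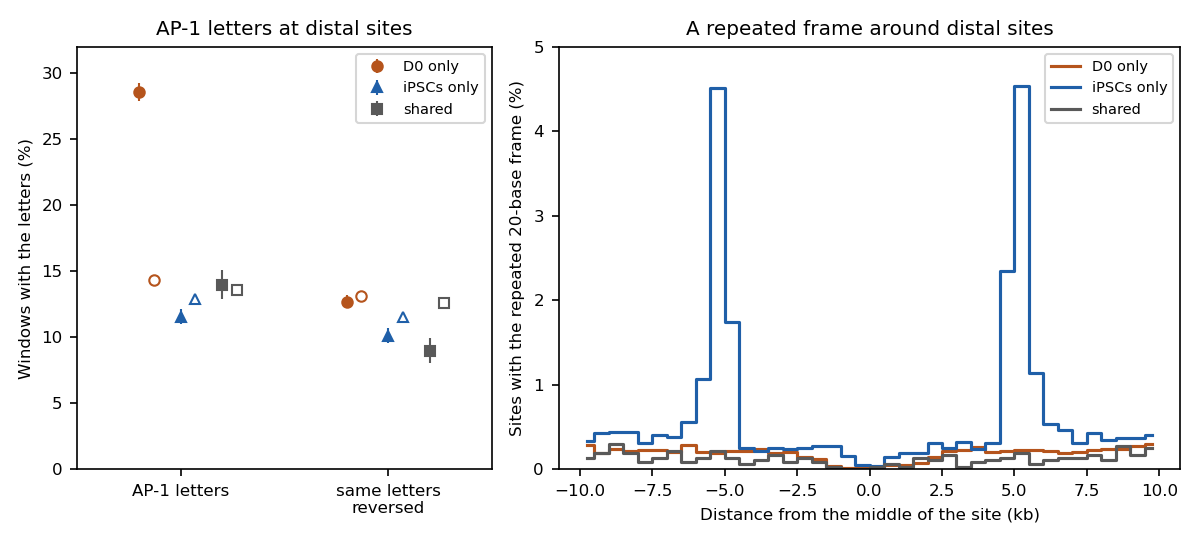
Left, percent of 500 bp windows at distal sites that hold the AP-1 letters or the same letters reversed (filled, with 95% Wilson intervals that cover counting error only) and of windows 5 kb away (open), for D0-only (orange circles), iPSC-only (blue triangles) and shared sites (grey squares); right, percent of sites with the repeated 20-base frame in each 500 bp bin by distance from the middle of the site (kb). The D0-only sites have AP-1 letters in 28.6% against 14.3% beside them, and the frame is present 4 to 6 kb from 15.4% of iPSC-only sites.

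The counts of single-state promoters were set side by side over all settings that were tried. D0-only genes outnumbered iPSC-only genes in each. As a ratio, the counts were closest with a window of 2 kb to either side of a start, 898 against 563. They were farthest apart among peaks at least 8-fold over input, 8035 against 94. Requiring that 50% of the promoter window be covered gave 2787 D0-only genes. Leaving out genes whose peaks lay over input of more than 3 times the median took 14 genes from the iPSC-only class and 0 from the D0-only class.

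**Figure D5:**
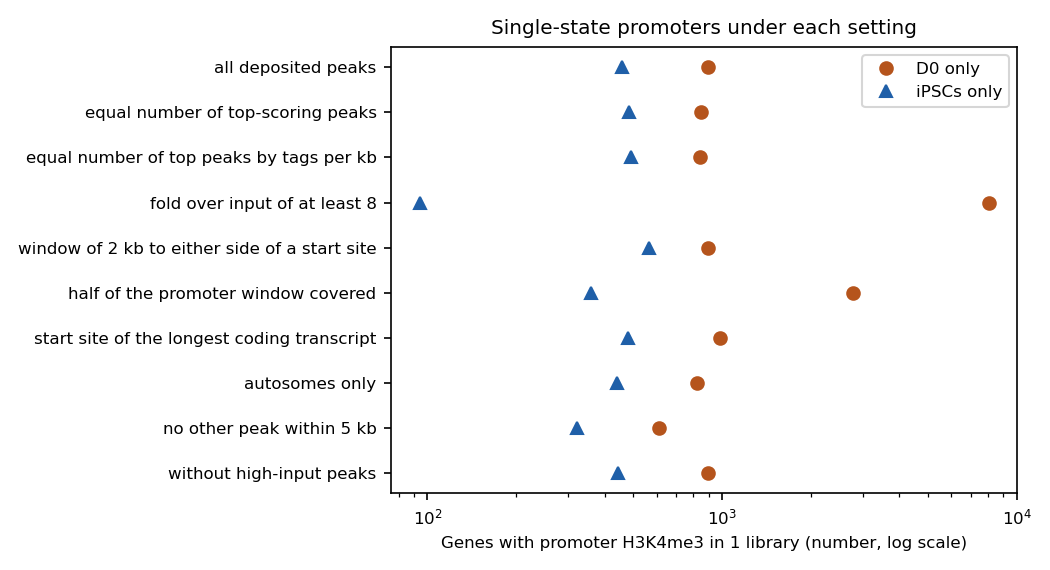
Number of genes (x axis, log scale) with promoter H3K4me3 in D0 only (orange circles) or in iPSCs only (blue triangles) under each setting (y axis). The D0-only count is the higher in every setting, and the gap is widest, 8035 against 94, among peaks at least 8-fold over input.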

How the data were processed

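ChIP-seq peak lists of mouse cells were used, with 1 library per state. Per the study's methods, the authors aligned reads to mm9 with STAR, removed reads with more than 2 mismatches or several loci, and called peaks per library with HOMER against input. Per the file headers, the H3K4me3 and H3K36me3 lists required a fold of at least 4 over input, the H3.3 lists a fold of at least 2, and all a Poisson p limit of 0.0001 over input. Versions are not given in the sources used here. The deposited Normalized Tag Count and Control Tags are signal values per 10 M tags, and the deposited fold over input is a ratio. Peaks were assigned to 22219 protein-coding genes of the NCBIM37 (mm9) annotation, with models of 1 symbol counted once, by an overlap of at least 1 bp with the promoter window; a gene's tag count is the sum over its promoter peaks and its breadth the widest of them. Each choice was changed in turn over 15 settings. Shares have Wilson and differences Newcombe intervals (Python 3.11.15, scipy 1.17.1, pysam 0.24.0). Scripts were tested on simulated data. With 1 library per state no test was possible. The members, gene lists, motifs and settings were chosen with earlier results of these data known. Genes named outside the lists were the first 10 by tag count or breadth; shared 20-base words and high-input genes were examined after values were seen. Control Tags gave the input density (tags per kb over the library median).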

Additional observations from a re-analysis of the deposited data

Results flagged for a closer look

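These values come from the input column of the iPSC list. Peak calling required a fold of at least 4 over input, so they are not independent of the promoter classes. Input density in the promoter peaks, relative to the library median, was far above the median at 9 of the 10 strongest iPSC-only promoters: 33.5 at Pou5f1, 48.8 at Sfi1, 5.89 at Gm13242, 8.22 at 2610305D13Rik, 4.91 at Gm13225, 4.84 at Gm13051, 4.68 at Zfp600, 8.14 at Gm13152 and 7.42 at Gm13154. The D0 library had no promoter peak at these genes, so it gives no input value there. Apart from Pou5f1 and Sfi1, all are in the chromosome 4 interval described above, where Gm13242 and Gm13225 share an iPSC promoter peak.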

How the results depend on the processing

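Of the recomputed values, 82 moved by less than the limits set for them and 10 by more. The first group includes the Hox change of -15.4 points, which was -2.56 (-14.5 to 8.68) with a window of 2 kb to either side, and the collagen change of -20.9 points, which was -9.30 (-26.1 to 8.05) with that window and whose interval also held 0 with equal numbers of top peaks (-18.6 by tag count and -16.3 by tags per kb). The fibroblast, pluripotency and germline changes had intervals that left out 0 with that window and with equal numbers of top peaks. Among peaks at least 8-fold over input, 8035 genes were D0-only, 94 iPSC-only and 5593 shared, and 4029 distal sites were D0-only and 1069 iPSC-only; fewer iPSC peaks pass this limit. With 50% of the promoter window covered, 2787 genes were D0-only; the cause was not tested. The median log2 tag count ratio at shared promoters was -0.19 divided by the sum over all peaks and -1.12 per kb of peak. In a setting added after seeing the data, without sites holding a shared 20-base word, the AP-1 difference was 15.3 points and the octamer difference 0.12 points, of the opposite sign to -0.42. No paired analysis was possible because each state has 1 library, and for the same reason no replicate could be left out. Enrichment limits what the lists show: the iPSC library was the deeper one, but 12.7% of its tags lay in peaks, so a promoter without an iPSC peak may hold the mark below the calling limit.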

Other observations

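Interferon-induced genes, whose products restrict viruses, stood among the D0-only promoters. This list of 42 genes was written after the values were seen, so its counts are a description and support nothing. Of the 42, 39 were marked in D0 and 14 in iPSCs, 25 were D0-only and 0 iPSC-only, against 4.05% D0-only over all genes. Isg15, a ubiquitin-like modifier, had a tag count of 318.7 in D0, Usp18, which removes Isg15 from its targets, had 306.7, and Rtp4 had 277.1. Irf7 and Irf9, transcription factors of the interferon response, were marked in both states. Of the 25 D0-only genes, 14 had an H3K4me3 peak at day 3 and 20 in D6T-, against 22 in D9T-, 17 in D12S+ and 6 in D16S+. H3K36me3 was found on 19 of them in D0 and on 3 in iPSCs, and H3.3 at 12 and 5.

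Of 12 enzymes that act on H3K27 or DNA methylation, a list also written after the values were seen, Kdm6b was D0-only, Tet1 was iPSC-only and the other 10 were marked in both states.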
